A study of Rattus norvegicus with 4 samples.

Results

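The matrix metalloproteases (Mmp), the ADAMTS proteases (Adamts), the ADAMTS-like proteins (Adamtsl) and the tissue inhibitors of metalloproteases (Timp) were followed in the rat soleus, a calf muscle built mostly of slow fibres. Members were all genes whose symbol is one of these 4 stems followed by a number. The gene name table holds 51 such genes, and 37 of them were matched by accession to a probe: 21 of 23 Mmp, 9 of 19 Adamts, 3 of 5 Adamtsl and 4 of 4 Timp genes. They stand among 26633 genes and transcripts. The other 14 members were not analysed here.

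Each of the 4 groups was 1 one-colour Agilent array, hybridised with equal parts of RNA from 6 muscles of male rats. The groups were normal soleus (age 16 weeks), regenerated soleus 8 weeks after an injection given as CTX (age 16 weeks), hypertrophied soleus, called overloaded here (age 18 weeks), and regenerated soleus after overloading (age 18 weeks). The labels do not expand CTX (usually cardiotoxin, a venom toxin that kills muscle fibres), nor name the strain, the way the load was raised, or the time from injection to the end of overload. With n = 1 per group, the differences below have no replicate check, and groups could not be tested against each other. Age and the row of the array on the slide go with overload and cannot be told apart from it. Both regenerated groups carry an L in their titles and the other groups an R, letters that the labels leave unexplained; if these letters are the leg, side and regeneration cannot be told apart, and whether R and L muscles came from the same rats is not given.

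Metalloproteases of the Mmp family are zinc enzymes that cut collagens, laminins, elastin and other matrix proteins. They are made as inactive precursors, and several are secreted while others sit in the cell membrane. ADAMTS enzymes are secreted relatives that cut proteoglycans such as versican and trim procollagens, ADAMTS-like proteins lack the protease domain, and TIMPs block the active site. Mmp14, Timp2 and the precursor of Mmp2 form a complex at the cell surface in which Mmp2 is activated. In muscle, these enzymes open the matrix around fibres during repair and growth, and much of their RNA comes from cells between the fibres. Whole muscle was measured, so a larger share of such cells and more RNA per cell cannot be told apart.

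Signals below are normalised signals: the scanner's processed spot intensity divided by the array's 75th percentile, so that 1 equals the 75th percentile. Levels of different genes come from different probes and are not compared. The errors are technical standard errors (SE). They rest on the spread between repeated spots of all probes with similar signal on the same array, not of the member's probe alone. A member with 1 spot per array therefore has an SE too. A member is called higher or lower from a 2-fold difference on, which is 1 on the log2 scale. Where its probe was well above background on 1 of the 2 arrays alone, the other array's detection floor, the lowest signal passing there as well above background, takes its place and the fold is given as an at-least fold. This floor was 0.0418 for normal, 0.022 for regenerated, 0.0191 for overloaded and 0.0235 for regenerated overloaded muscle.

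The normal array was the dimmest, with 60.4% of probe spots well above background against 68.1% to 70.6% on the other arrays. All 9 slow-fibre markers, Myh7 and Tnnt1 among them, were well above background on every array, with summed signals of 2803, 2359, 2250 and 2103 in normal, regenerated, overloaded and regenerated overloaded muscle. Fibroblast markers, 6 of 7 with a probe, had summed signals of 64.1, 129, 163 and 231 in the same order, most of it from the collagen genes Col1a1 and Col1a2, with 4, 6, 6 and 6 of them above background. The 7 macrophage markers were above background throughout and summed to 33.1, 52.8, 56.7 and 61.7, most of it from Lyz2.

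Of the 37 members with a probe, 19 were well above background on all 4 arrays, 8 on 2 or 3 arrays and 10 on none. Normal muscle had 19 members above background, regenerated 25, overloaded 26 and regenerated overloaded muscle 27. The members not above background on any array were Mmp1, Mmp8 and Mmp13 (collagenases), Mmp9 (gelatinase B), Mmp3 and Mmp10 (stromelysins), Mmp20, Mmp21, Adamts4 (an aggrecanase) and Adamts18. Their signals, between 0.004 and 0.0165, have no order, and say only that these RNAs were not detectable here. Mmp8 and Mmp9 are known from neutrophils, and of the 4 neutrophil markers with a probe 1 was above background in normal muscle and 3 on each of the other arrays, with summed signals of 0.181 to 0.258.

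Of the 8 Mmp genes above background on no array, 6 are neighbours. Mmp13, Mmp12, Mmp1b, Mmp3, Mmp1, Mmp10, Mmp8, Mmp27, Mmp20 and Mmp7 follow each other on rat chromosome 8 with no other protein-coding gene between them in the gene name table. Of these 10 genes, 9 had a probe and 3 were above background on any array: Mmp12, Mmp27 and Mmp7. Windows of 250 bases before the gene start, available for 40 members (RefSeq, build GRCr8; the most upstream start of each gene), were searched on both strands for the AP-1 motif TGANTCA, the TATA box TATAAA, the GC box GGGCGG and the PEA3 motif AGGAAG. The AP-1 motif was found in 7 of the 10 cluster windows and in 0 of the 30 others, against 6.33% of all 27457 genes with a window. A TATA box was found in 8 of the 10 cluster windows and 5 of the 30 others (13.1% of all genes), and a GC box in 0 of the 10 and 20 of the 30 (32.4% of all). The PEA3 motif was found in 5 of the 10 and 10 of the 30 (29.4% of all). Of the 7 members with the AP-1 motif, 2 were above background on any array, and of the 12 members with both a GC box and a probe, 12 were, beside 27 of all 37 members with a probe. A match is a run of letters and not a measured binding site. Near variants of the letters were not counted, and no overlap between these motifs was removed.

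The 150 bases before the start are shown for the 3 cluster genes that were above background, for 2 cluster genes that were not, and for Mmp23 and Timp1, which lie elsewhere and were above background on all 4 arrays. Capitals mark the AP-1 motif, the TATA box and the GC box on either strand. The windows are chr8:12866502-12866651 (plus strand) for Mmp12, chr8:13132893-13133042 (plus) for Mmp7, chr8:13030602-13030751 (plus) for Mmp27, chr8:12782679-12782828 (plus) for Mmp13, chr8:12925131-12925280 (plus) for Mmp3, chr5:171524535-171524684 (minus) for Mmp23 and chrX:3771123-3771272 (minus) for Timp1.
Mmp12: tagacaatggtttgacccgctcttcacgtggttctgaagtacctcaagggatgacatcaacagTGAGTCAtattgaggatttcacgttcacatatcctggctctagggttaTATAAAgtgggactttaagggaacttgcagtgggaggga
Mmp7: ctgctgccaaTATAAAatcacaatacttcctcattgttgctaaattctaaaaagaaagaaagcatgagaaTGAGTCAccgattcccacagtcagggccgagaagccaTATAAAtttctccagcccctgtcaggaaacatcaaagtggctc
Mmp27: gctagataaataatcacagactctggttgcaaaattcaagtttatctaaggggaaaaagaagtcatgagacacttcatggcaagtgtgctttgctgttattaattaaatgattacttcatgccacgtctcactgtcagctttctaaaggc
Mmp13: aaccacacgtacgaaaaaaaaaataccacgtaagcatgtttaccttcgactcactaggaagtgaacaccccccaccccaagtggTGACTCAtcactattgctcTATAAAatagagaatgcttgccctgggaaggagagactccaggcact
Mmp3: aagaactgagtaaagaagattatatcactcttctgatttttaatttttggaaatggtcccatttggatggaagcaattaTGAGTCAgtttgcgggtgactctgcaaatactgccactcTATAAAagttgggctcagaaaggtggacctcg
Mmp23: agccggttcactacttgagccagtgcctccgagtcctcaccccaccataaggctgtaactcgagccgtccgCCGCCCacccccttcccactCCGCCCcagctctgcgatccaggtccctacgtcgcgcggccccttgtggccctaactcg
Timp1: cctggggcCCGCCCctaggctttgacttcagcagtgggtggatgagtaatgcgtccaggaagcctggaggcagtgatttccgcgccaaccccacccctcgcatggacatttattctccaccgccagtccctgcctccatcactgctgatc
Mmp12, Mmp7, Mmp13 and Mmp3 share the TGAGTCA or TGACTCA heptamer a short way before a TATAAA, although Mmp13 and Mmp3 were not detectable. The Mmp27 stretch holds none of the capital motifs, and those of Mmp23 and Timp1 hold a GC box and neither TGANTCA nor TATAAA. Variants of these letters, such as the TGAGTAA in the Timp1 stretch, were not searched.

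Among the membrane-type metalloproteases above background on all 4 arrays, Mmp14 (MT1-MMP), which cuts collagen at the cell surface, differed most between the arrays. Its signal was 1.37 in normal, 3.31 in regenerated, 6.61 in overloaded and 7.73 in regenerated overloaded muscle. The 10 repeated spots lay between 1.29 and 1.41, 3.06 and 3.46, 6.35 and 6.85, and 7.44 and 8.09, so that no spot of one array overlapped those of another. Regenerated muscle was 2.41-fold above normal (log2 difference 1.27, technical SE 0.026) and overloaded muscle 4.82-fold (2.27, technical SE 0.026), the 14th highest of 15865 genes and transcripts with a fold. After overload, regenerated muscle was 2.34-fold higher than before (1.22, technical SE 0.024), and it stood 1.17-fold above overloaded muscle without regeneration (0.23, technical SE 0.023).

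Mmp2, gelatinase A, which Mmp14 activates, had signals of 8.70, 19.5, 23.6 and 36.1 in the same order of groups. Normal muscle was lowest and regenerated overloaded muscle highest. The difference from normal was 2.24-fold in regenerated muscle (log2 1.16, technical SE 0.075) and 2.72-fold in overloaded muscle (1.44, technical SE 0.075), from 1 spot per array. A second probe of Mmp2 gave 1.13 and 1.56. Regenerated overloaded muscle was 1.85-fold above regenerated (0.89) and 1.53-fold above overloaded muscle (0.61). The summed fibroblast, macrophage and neutrophil markers stood in the same order of groups as Mmp2 and Mmp14. So did the summed signals of the pathway lists read below. Those of the tendon and cartilage, endothelial and smooth muscle markers did not. The summed slow-fibre markers stood in the reverse order. Among single fibroblast markers, Pi16 was highest in overloaded muscle (9.63, against 8.56 in regenerated overloaded) and Fbln1 was higher in regenerated (0.0804) than in overloaded muscle (0.0741). Of the macrophage markers, Cd68 was higher in regenerated (1.88) than in overloaded muscle (1.84), and Csf1r in overloaded (0.494) than in regenerated overloaded muscle (0.43). Of the slow-fibre markers, Tnnt1 was higher in regenerated overloaded (448) than in overloaded muscle (439), and Tpm3 in overloaded (5.69) than in regenerated muscle (5.42). The part of any of these cell types in the Mmp2 and Mmp14 differences was not tested.

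Mmp16 (MT3-MMP) was not well above background in normal muscle, at 0.0119, and had 0.0393, 0.046 and 0.0791 in regenerated, overloaded and regenerated overloaded muscle. All its spots were above background on these 3 arrays, and the 9 spots on the regenerated overloaded array (0.0721 to 0.0898) lay above the 10 on the regenerated array (0.0315 to 0.0499). The difference between those arrays was 2.01-fold (log2 1.01, technical SE 0.13). Against normal muscle, overloaded muscle was at least 1.1-fold higher, and regenerated muscle gave no fold, since its signal lies under the floor of the normal array. Mmp17 (MT4-MMP, held by a lipid anchor) went from 0.0737 to 0.108, 0.123 and 0.157 and passed 2-fold in none of the 4 comparisons. Mmp15 (MT2-MMP) was level, at 14.7, 14.1, 14.8 and 13.4, with log2 differences between -0.15 and 0.01. Mmp24 (MT5-MMP) was dim, at 0.0263 to 0.0375, with log2 differences between -0.51 and 0.46 and technical SEs of 0.38 to 0.52.

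**Figure D1:**
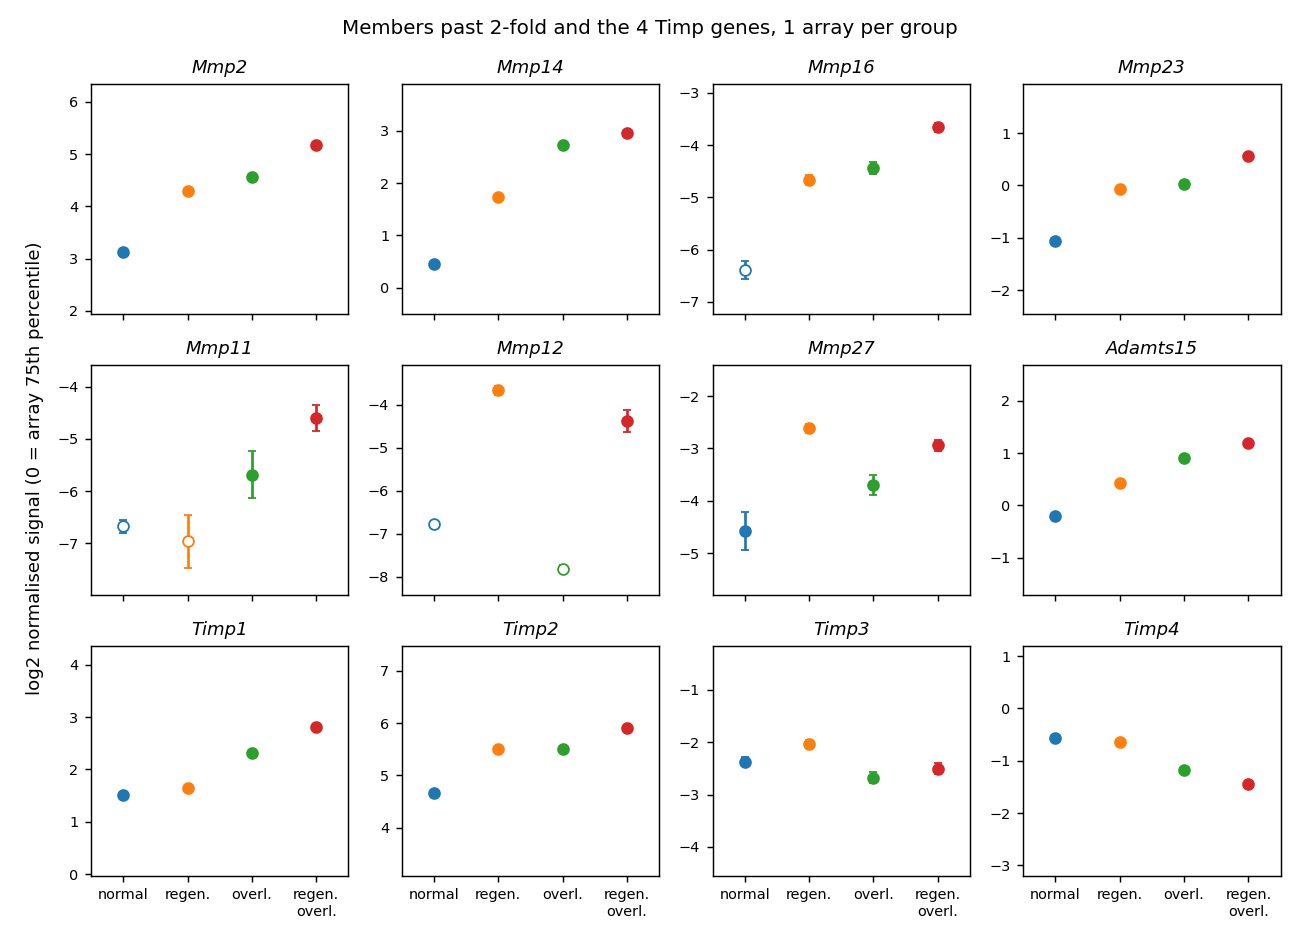
Log2 normalised signal (vertical, 0 = the array's 75th percentile) of the 8 Mmp and Adamts members past 2-fold and the 4 Timp genes on the 4 arrays. Bars are technical SE from repeated spots of probes with similar signal, and open circles are arrays where the probe was not well above background. Mmp2, Mmp14, Mmp23, Adamts15, Timp1 and Timp2 were lowest in normal and highest in regenerated overloaded muscle. Mmp12 was above background in both regenerated groups alone, and Timp4 was highest in normal muscle.

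Mmp23, a membrane-anchored member without the hemopexin domain, had signals of 0.479, 0.959, 1.02 and 1.47 in normal, regenerated, overloaded and regenerated overloaded muscle. It was 2.002-fold higher in regenerated than in normal muscle (log2 1.001, technical SE 0.077) and 2.12-fold higher in overloaded muscle (1.08, technical SE 0.075). Both values lie near the 2-fold limit. Regenerated overloaded muscle was 1.53-fold above regenerated and 1.45-fold above overloaded muscle.

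Mmp12, the macrophage elastase, stood apart from the members above. It had 0.0786 in regenerated and 0.0478 in regenerated overloaded muscle, and was not well above background in normal (0.0091) or overloaded muscle (0.0044). Regenerated muscle was therefore at least 1.88-fold above normal, and regenerated overloaded muscle at least 2.51-fold above overloaded muscle. Between the 2 regenerated groups it was 1.64-fold lower after overload (log2 -0.72, technical SE 0.27). Summed macrophage markers were 52.8 in regenerated and 56.7 in overloaded muscle. Cd68 was 1.88 and 1.84, and each of the other macrophage markers was higher in overloaded muscle. Among these, Csf1r had 0.393 and 0.494 and Adgre1 0.432 and 0.595. The part of macrophages in the Mmp12 differences was not tested.

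Mmp27, a cluster gene of the stromelysin kind, was highest in regenerated muscle. Its signals were 0.0419, 0.163, 0.0769 and 0.13, the first of them just over the floor of the normal array. Regenerated muscle was 3.89-fold above normal (log2 1.96, technical SE 0.37), the 26th highest of 15805 genes and transcripts with a fold. Overloaded muscle was 1.84-fold above normal (0.88, technical SE 0.41), while overload of regenerated muscle went with a 1.25-fold lower signal (-0.33, technical SE 0.13).

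Mmp11, stromelysin 3, known from fibroblasts of remodelling tissue, was above background after overload alone. It had 0.0195 in overloaded and 0.0412 in regenerated overloaded muscle (2.12-fold, log2 1.08), against 0.0098 and 0.008 in normal and regenerated muscle, where it was not above background. The detection limits were unequal. Both overloaded signals lie under the floor of the normal array (0.0418), and that of overloaded muscle also under the regenerated floor (0.022). Overloaded muscle therefore gave no fold against normal muscle. Each value rests on 2 spots, the technical SE of that difference was 0.51, and 1 spot lay in the outer rows. Against regenerated muscle, regenerated overloaded muscle was at least 1.87-fold higher. Mmp7 (matrilysin), at 0.0474 to 0.0751, stayed within 2-fold in the 4 comparisons. Mmp19 (0.0276 to 0.0405) and Mmp28 (0.0382 to 0.0562) were not above background in normal muscle and gave no fold against it, and both stayed within 2-fold in the other comparisons.

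Of the Adamts proteases, Adamts15, which cuts versican and aggrecan, was the member past 2-fold. Its signals were 0.867, 1.35, 1.88 and 2.28, and the 9 spots used on each array did not overlap between arrays. Overloaded muscle was 2.17-fold above normal (log2 1.12, technical SE 0.03). The other differences were 1.55-fold for regenerated against normal, 1.70-fold for overload of regenerated muscle and 1.21-fold between the overloaded groups. A second probe of Adamts15 lay near background, at 0.0169 to 0.0351, and was not above it on the normal and overloaded arrays, so it gives no value for that comparison.

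Adamts7, which cuts cartilage oligomeric matrix protein (Comp), had 0.295, 0.373, 0.56 and 0.612 in normal, regenerated, overloaded and regenerated overloaded muscle. Its largest difference in the 4 comparisons was 0.92 on the log2 scale, for overloaded against normal muscle. Adamts5, an aggrecanase that also cuts versican, had 0.162, 0.206, 0.274 and 0.241, and Adamts9, another versican-cutting enzyme, 0.339, 0.45, 0.371 and 0.449. Adamts1, of the same substrate group, was level at 1.57, 1.41, 1.54 and 1.54, with the spots of all 4 arrays between 1.35 and 1.65. Adamts12, a relative of Adamts7, was not above background in normal muscle (0.0338) and had 0.0771, 0.0695 and 0.104 on the other arrays, which puts regenerated muscle at least 1.84-fold and overloaded muscle at least 1.66-fold above normal. Adamts19 was above background after overload alone, at 0.0371 and 0.0272, both under the floor of the normal array (0.0418). Of the ADAMTS-like genes, Adamtsl4, a protein of the microfibrils, had 0.347, 0.302, 0.303 and 0.215, and the dim Adamtsl3 and Adamtsl5 lay between 0.0201 and 0.0424.

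**Figure D2:**
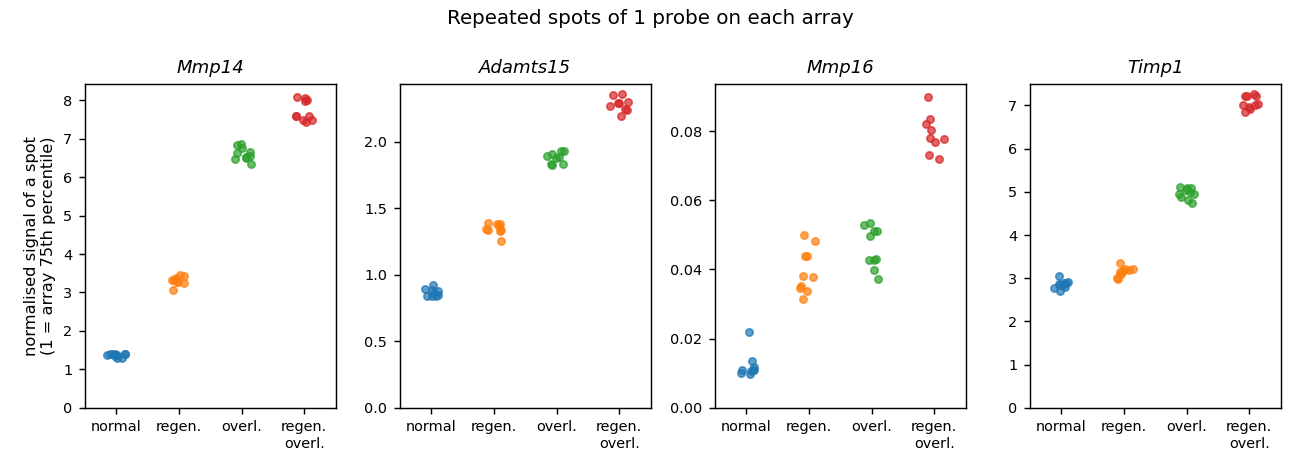
Normalised signal of each repeated spot (vertical, 1 = the array's 75th percentile, linear axes from 0) of Mmp14, Adamts15, Mmp16 and Timp1 on the 4 arrays; a point is 1 spot of the same probe and shows technical spread alone. Spots of Mmp14 and Adamts15 did not overlap between any arrays, those of Mmp16 overlapped between regenerated and overloaded muscle, and those of Timp1 between normal and regenerated muscle.

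The 4 inhibitors differed in pattern. Timp1, the inducible secreted inhibitor, had 2.85 in normal and 3.14 in regenerated muscle, with overlapping spots (2.71 to 3.04 and 2.99 to 3.35), then 4.97 in overloaded and 7.07 in regenerated overloaded muscle. Overload went with a 2.25-fold higher signal in regenerated muscle (log2 1.17, technical SE 0.024) and 1.74-fold in normal muscle (0.80, technical SE 0.024). Regenerated and normal muscle differed by 0.14 on the log2 scale (technical SE 0.025). Timp2, which also takes part in Mmp2 activation, had 25.2, 45.3, 45.7 and 60, with log2 differences from normal of 0.85 (technical SE 0.053) and 0.86 (technical SE 0.053).

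Timp3, the matrix-bound inhibitor that also blocks ADAMTS enzymes, had 0.193, 0.245, 0.156 and 0.176 and passed 2-fold in none of the 4 comparisons. Timp4, the inhibitor abundant in heart and muscle, was lowest after overload, at 0.677, 0.641, 0.441 and 0.369. Its log2 difference with overload was -0.62 (technical SE 0.086) in normal and -0.80 (technical SE 0.075) in regenerated muscle, and a second probe gave -0.57 and -0.84. In the 4 comparisons 0 members were 2-fold or more lower, and -0.80 for Timp4 was the lowest member difference.

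Regenerated against normal muscle asks what is left of the injury after 8 weeks. Mmp27, Mmp14, Mmp2 and Mmp23 were 2-fold or more higher, 4 of the 25 members measured (detected in 1 or both groups). Of the others, 17 had a fold or at-least fold under 2, and 4 gave no fold. The at-least folds among the 17 were 1.88 for Mmp12 and 1.84 for Adamts12. These are lower limits and do not show a difference within 2-fold. Of all 17497 genes and transcripts measured, 2.02% were 2-fold or more apart, 1.23% higher and 0.789% lower. The 19 members above background on both arrays had a median log2 difference of 0.35, against -0.11 for all 14918 such genes. The 4 higher members were above background on both arrays. In any comparison, a member above background in 1 group alone can only be called higher in that group. With 1 array per group, the medians and counts describe the arrays and are no support. The relation of the median to that of all genes depended on scaling: it lay 0.25 to 0.45 above it over the scalings tried. Mmp23 ended under 2-fold with normexp background correction (0.87), quantile normalization (0.97) and median scaling (0.92), and Mmp27 with normexp (0.75). Timp2 was past 2-fold with quantile normalization (1.04) and cyclic loess (1.06). Mmp12 was past it with cyclic loess (1.38), the deposited series table (1.04) and no filter on dim probes (3.11).

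The other genes of the pathway were read from 3 lists. The list called ADAMTS substrates here and below is broader than its name. It also holds the hyaluronan synthases Has1 and Has2, which are not such substrates, and the link protein Hapln1. Has1 and Has2 enter its counts where measured, and neither passed 2-fold in any comparison. Of 15 measured genes of Mmp activation and control (such as Furin, Plau, Reck and Bsg) 0 passed 2-fold, and of 16 other matrix proteases (Adam, cathepsin and Bmp1 types) 0 did. Of 14 measured ADAMTS substrates 2 were higher: Fbn2 (fibrillin 2, log2 1.38, technical SE 0.25) and Ltbp1, which holds latent TGF-beta in the matrix (1.22, technical SE 0.25). The medians of those above background on both arrays were 0.21, 0.52 and 0.30.

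The comparison of overloaded with normal muscle gave the widest member differences. Mmp14, Mmp2, Adamts15 and Mmp23 were 2-fold or more higher, 4 of 26 measured members. A further 17 had a fold or at-least fold under 2, and 5 gave no fold. For Adamts12 (at least 1.66-fold) and Mmp16 (at least 1.1-fold), among the 17, the lower limit does not show a difference within 2-fold. Of all 17987 genes and transcripts measured, 3.26% were 2-fold or more apart, 2.39% higher and 0.878% lower. Mmp14, Mmp2 and Mmp23 were higher in both comparisons with the normal array, which share that array. The median of the 19 members above background on both arrays was 0.74 against -0.12 for all 14934 genes, and lay 0.20 to 0.86 above theirs over the scalings. Mmp23 ended under 2-fold with normexp (0.93) and median scaling (0.97), and Adamts15 when its 2 probes were averaged (0.35). Timp2 was past 2-fold with cyclic loess (1.14), Mmp27 with the deposited series table (1.05) and Mmp16 without a filter on dim probes (1.95).

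Here the proteases outside the family were also higher in part. Fap, the fibroblast activation protein (log2 1.59, technical SE 0.09), Ctsk, the collagen-degrading cathepsin K (1.47, technical SE 0.06), Htra1 (1.17, technical SE 0.03) and Adam19 (1.11, technical SE 0.08) were past 2-fold, 4 of 16 measured matrix proteases with 0 lower. Of 16 measured genes of Mmp activation and control, Pcsk5, a proprotein convertase, was higher (1.16, technical SE 0.14). Of 15 measured ADAMTS substrates 5 were higher, with Fbn2 at 2.27, Thbs2 (thrombospondin 2) at 1.48, Bgn (biglycan) at 1.42 and Lum (lumican) at 1.40. List medians were 0.63, 0.22 and 0.89.

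Regenerated overloaded against regenerated muscle asks how overload goes with these genes after injury. Mmp14, Timp1 and Mmp16 were 2-fold or more higher, 3 of 27 measured members. The other 24 had a fold or at-least fold under 2. Among them, Mmp11 (at least 1.87-fold) and Adamts19 (at least 1.24-fold) have lower limits alone, which do not show a difference within 2-fold. Of all 17892 genes and transcripts measured, 2.02% were 2-fold or more apart, 1.56% higher and 0.458% lower. The median of the 25 members above background on both arrays was 0.35, against -0.02 for all 16584 genes, and lay 0.08 to 0.37 above theirs over the scalings. Mmp16 ended under 2-fold with normexp (0.28), quantile normalization (0.97) and median scaling (0.95). Mmp11 was past it without a filter on dim probes (2.36).

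Of the substrates, 6 of 16 measured were higher, among them Fbn2 (1.79), Lum (1.56), Comp (1.21) and Fmod (fibromodulin, 1.18), and 0 were lower. Ctsk (1.11) and Fap (1.12) were higher among 16 matrix proteases. Of 17 genes of Mmp activation and control, A2m, the plasma protease inhibitor alpha-2-macroglobulin, was at least 4.43-fold higher. Comp and Fmod also mark tendon and cartilage; of the 6 such markers with a probe 5 were above background on every array, their summed signal was 24.0, 20.2, 20.2 and 35.5, and of the cartilage genes Acan was not above background on any array while Col2a1 was dim but above it on all 4 (0.0428, 0.0492, 0.0395 and 0.061). The part of tendon or cartilage RNA in the member differences was not tested.

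Regenerated overloaded against overloaded muscle compares muscle with and without earlier injury under load. Mmp12 (at least 2.51-fold) and Mmp11 (2.12-fold) were higher, 2 of 27 measured members, and 25 stayed within 2-fold. Of all 18251 genes and transcripts measured, 1.78% were 2-fold or more apart, 1.07% higher and 0.707% lower. The median of the 26 members above background on both arrays was 0.28 against -0.01 for all 16731 genes. Of the 3 lists, Comp (1.70) and Fmod (1.32) were past 2-fold. Both member values ended under 2-fold with normexp (0.67 for Mmp12 and 0.26 for Mmp11), and Mmp11 did without the spots in the outer rows (0.38).

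**Figure D3:**
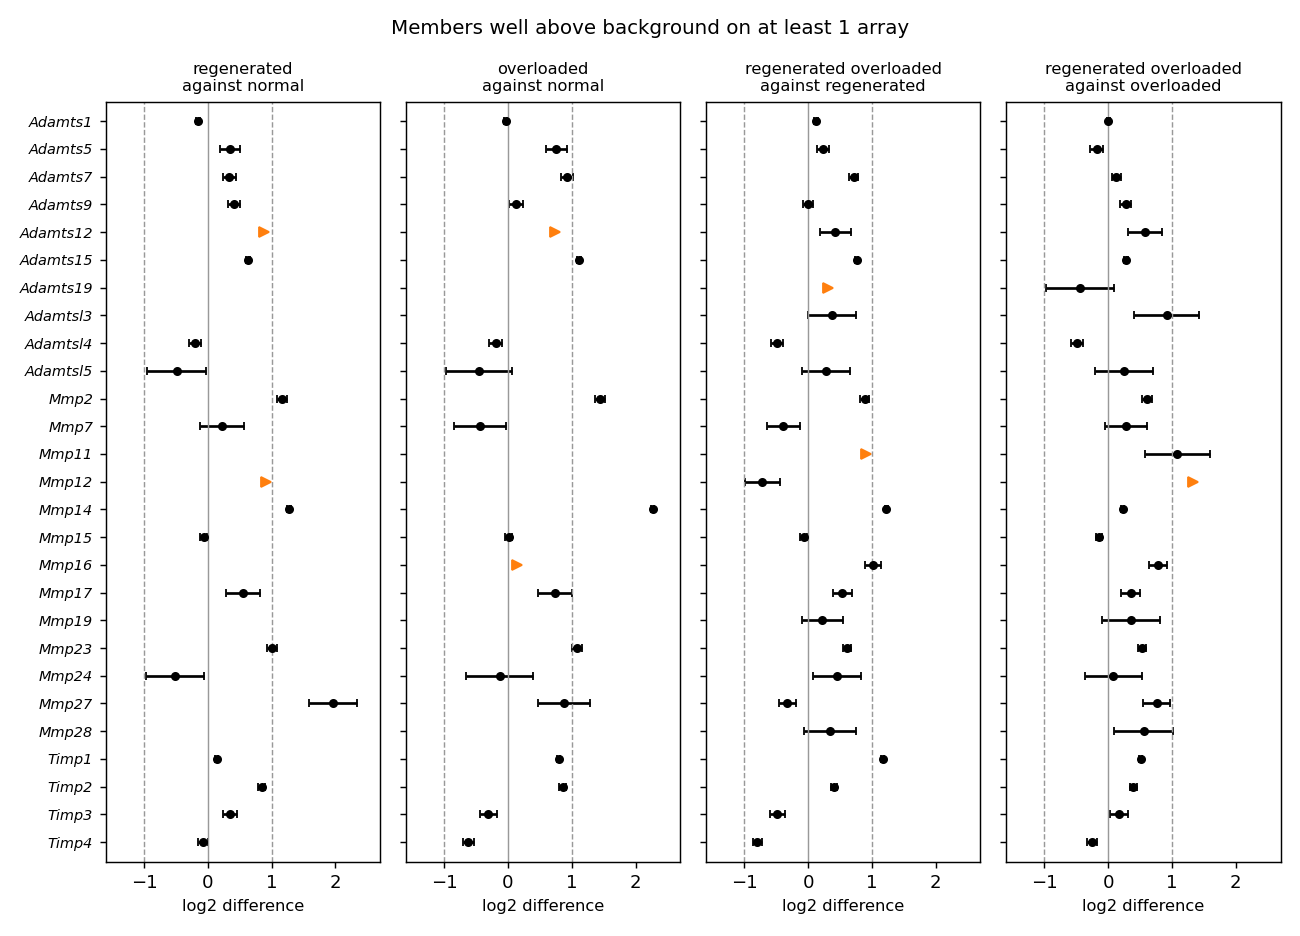
Log2 difference (horizontal) of each member well above background on at least 1 array in the 4 comparisons; points carry a technical SE, triangles are at-least differences, dashed lines mark 2-fold, and a missing symbol means no fold. Symbols past the right dashed line are 4, 4, 3 and 2 members, and no symbol lies past the left one.

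Overload without and with regeneration was compared through the difference of differences, in which the overload difference of normal muscle is taken from that of regenerated muscle. These 2 differences share no array. Over the 19 members above background on all 4 arrays it was below 0 in 14, against 38.8% of all 14862 such genes, with a median of -0.20 (all genes 0.07). Over the scalings the members' median lay between -0.33 and -0.08 and stayed 0.18 to 0.27 below that of all genes. Above 0 were 5 of the 19, and 8 of the 19 with the probes of a gene averaged. Some values were no larger than their technical SE, negative ones such as Mmp17 (-0.20, technical SE 0.30) and Timp3 (-0.17, technical SE 0.18). The same holds for positive ones such as Mmp7 (0.05, technical SE 0.48). A size of 1 or more was reached by 2 of the 19, Mmp27 (-1.20, technical SE 0.43) and Mmp14 (-1.04, technical SE 0.035), against 0.935% of all genes (0.518% at -1 or less, 0.417% at 1 or more).

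For Mmp14 the overload difference was 2.27 in normal and 1.22 in regenerated muscle, from a higher starting signal. Mmp2 (-0.55, technical SE 0.11), Adamts5 (-0.53, technical SE 0.19), Mmp23 (-0.47, technical SE 0.097), Timp2 (-0.45, technical SE 0.074) and Adamts15 (-0.36, technical SE 0.04) had smaller negative values. That of Adamts15 turned to 0.32 when its bright probe was averaged with the one near background. Timp1 had a positive one (0.37, technical SE 0.034), with overload differences of 0.80 in normal and 1.17 in regenerated muscle. Adamts1 (0.15, technical SE 0.037) and the dim Adamtsl5 (0.74, technical SE 0.64) and Mmp24 (0.59, technical SE 0.64) were also above 0. For Timp4 the value was -0.18 (technical SE 0.11). All these values use the normal array, and none could be set against the variation between animals. The value of Mmp14 was -0.96 with normexp and -0.99 with median scaling, and that of Mmp27 -0.31 with normexp.

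**Figure D4:**
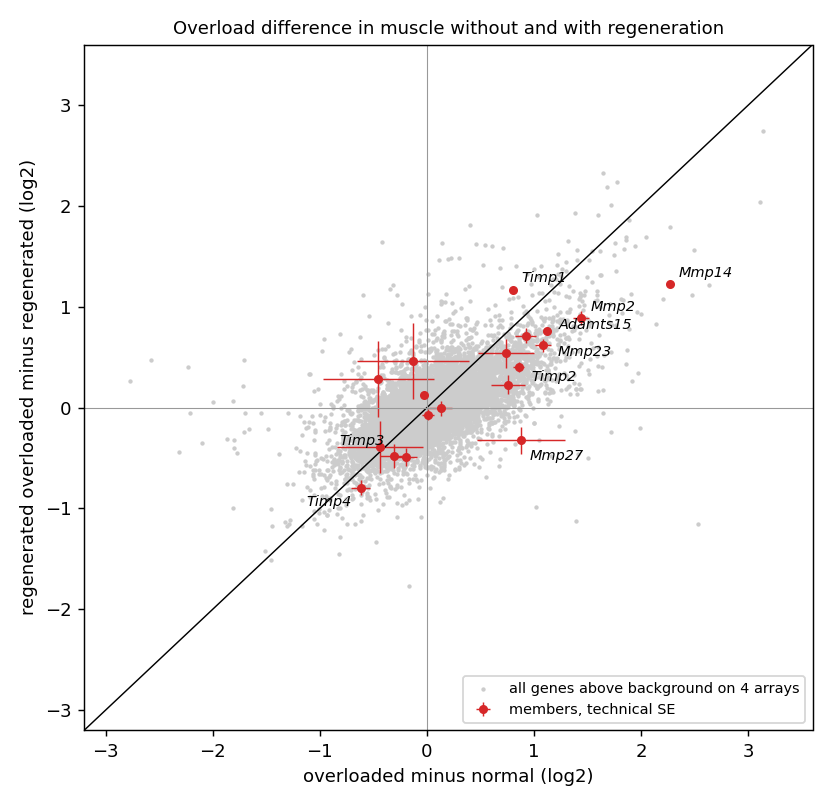
Overload difference in muscle without regeneration (horizontal, overloaded minus normal, log2) and in regenerated muscle (vertical, regenerated overloaded minus regenerated, log2) for 19 members (red, technical SE) and all 14862 genes above background on 4 arrays (grey); the black line marks equal differences. Of the labelled members, Timp1 lies above the line, and Mmp14, Mmp2, Mmp23, Adamts15, Timp2, Mmp27, Timp3 and Timp4 lie below it. Adamts15 would lie above it (0.32) with its 2 probes averaged.

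Read across the 4 arrays, 8 of the 19 members had their lowest signal in normal and their highest in regenerated overloaded muscle, a pattern of 16.2% of the 14862 genes. These were Mmp2, Mmp14, Mmp17, Mmp23, Adamts7, Adamts15, Timp1 and Timp2. Normal muscle was lowest in 11 of the 19 (25.1% of all genes) and regenerated overloaded muscle highest in 8 (23% of all genes). Mmp27 and Timp3 were highest in regenerated muscle, as were Adamts9 and Mmp7. Timp4 and Adamtsl4 had the reverse order, highest in normal and lowest in regenerated overloaded muscle.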

How the data were processed

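Per the labels' protocols, RNA isolated with Isogen was turned into Cy3 cRNA by Low Input Quick Amp labelling. The authors deposited 1 Agilent Feature Extraction file per array with the processed intensity of each spot (background-subtracted, not scaled between arrays), median spot and local background intensities, and flags. Per the file headers, the software was Feature Extraction 11.5.1.1 with protocol GE1_1105_Oct12 on build rn4; per the submitters' processing notes it was version 10.10.1.1. The deposited series table equals the processed intensity times 1 constant per array (2.14, 2.10, 1.95 and 2.02); what the constant was chosen from is not given in the sources used here. It is linear and not centred, with column medians of 181.5, 211.5, 221.6 and 225.9.

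Flagged outlier spots (406 to 451 of 58717 probe spots) were left out, and 0 were saturated. Log2 processed intensity was reduced by that of the array's 75th percentile, and spots of a probe were averaged. Accessions matched 18643 of 30367 probes to 15637 symbols (table of assembly GRCr8, used for names and gene order). Where a gene had several probes, the one brightest on average was used. A probe was well above background where at least 1 of every 2 of its spots was. Technical SEs used the SD between spots in 20 bins of signal. Each array was 1 sample, so no test was run, and precision is limited by how few arrays there are. Promoter windows came from RefSeq (33469 windows of 27457 genes); each gene was read from the window of its most upstream start, a rule set after seeing that 3 of the 40 members had several. With any window counted, the TATA box was in 14 members in place of 13 and the other motif counts were as given. limma 3.58.1 (R 4.3.3) gave normexp (offset 50), quantile and cyclic loess values; Python 3.11.15 did the rest. The calculation was tested on simulated data.

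Members, pathway lists and markers were chosen with earlier results of these data known. Named members were those past 2-fold in a comparison, those with a difference of differences of 1 or more, and all Timp genes. From the pathway lists at most 4 genes past 2-fold were named per list and comparison.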

Additional observations from a re-analysis of the deposited data

Results flagged for a closer look

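Mmp27 had a positive overload difference in normal muscle (0.88 on the log2 scale) and a negative one in regenerated muscle (-0.33), which differ by -1.20. With 1 array per group, this difference was not tested. The value was -0.31 with normexp background correction, and there was none when all spots of a probe had to be above background. Its signal in normal muscle, 0.0419, lay just over the floor of that array (0.0418).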

How the results depend on the processing

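No paired analysis was possible because each group is 1 array and the labels give no replicate numbers; the R and L of the titles would give 1 pair per comparison. In all, 12 alternatives were run. Of the 15 called differences of named members 6 stayed past the limit in every alternative that gave a value: Mmp14 in 3 comparisons, Mmp2 in 2 and Timp1 in 1. The other 9 ended under it in at least 1 alternative, 0 of the 15 changed sign, and 6 of 38 differences under the limit passed it in at least 1. Of these 38, 2 changed sign: the difference of differences of Adamts15 (-0.36, and 0.32 with its probes averaged) and Timp4 in regenerated against normal muscle (-0.08, and 0.05 with the deposited series table). The cause was not tested.

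The count for regenerated against normal, 4, was 2 with normexp, 7 with cyclic loess, 9 without a filter on dim probes and 8 at 1.5-fold. That for overloaded against normal, 4, was 7 with the deposited series table, 14 without the filter (6 higher, 8 lower) and 12 at 1.5-fold. That for regenerated overloaded against regenerated, 3, was 10 at 1.5-fold. That for regenerated overloaded against overloaded, 2, was 0 with normexp and either scaling, 1 with cyclic loess, 1 with both arrays above background, 1 without the outer rows and 6 at 1.5-fold. The count for the difference of differences, 2, was 0 with normexp and either scaling, 1 with median scaling, 1 with all spots above background, 9 without the filter and 4 at 1.5-fold; a filter on both arrays leaves it as it is. The all-gene median lay between -0.23 and 0.06 for overloaded against normal over the scalings, so differences near 0 should be read against it. Members near background, Mmp11, Mmp12, Mmp16 and Mmp27 among them, are limited by signal over background.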
